A study of Saccharomyces cerevisiae with 21 samples.

Results

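Depletion of Rap1 was examined by comparing RAP1-AID cells treated with IAA with RAP1-AID cells treated with DMSO. The comparison takes all libraries that the labels give to these groups, 3 biological replicates each, which makes 6 of the 21 mRNA-seq libraries of the series. In these strains a protein carries an auxin-inducible degron (AID). When the plant hormone IAA (an auxin) is present, the F-box protein osTIR, here made from the GPD1 promoter (pGPD1-osTIR, inserted at LEU2), binds the degron and sends the protein to the proteasome. In the strain compared here the tag is on the endogenous RAP1 gene (RAP1-3V5-IAA7, marked with KANMX6). IAA was given at 500 µM, and DMSO is its solvent. Cells came from BY4741, were MATa, and by label carried his3D1, leu2D0, met15D0 and ura3D0 together with a 3xFLAG tag on Rpb3, a subunit of RNA polymerase II, as did all strains of the series. Used beside them were untreated wild-type (WT) cells, which have no degron tag and no osTIR, STH1-AID cells (STH1-3V5-IAA7, with osTIR) and STH1-AID RAP1-AID cells with both tags, each degron strain with DMSO and with IAA and 3 libraries per group. Untagged cells were not given IAA, so an effect of IAA itself cannot be told apart from loss of Rap1 within the RAP1-AID strain.

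Rap1 is a general regulatory factor of budding yeast, a sequence-specific DNA-binding protein that sits in the promoters of most ribosomal protein genes and of many glycolytic genes and helps to recruit further activators there. It also binds the repeats at chromosome ends and the silencers of the silent mating loci, where it recruits the Sir proteins. Ribosomal protein (RP) genes are therefore the best known set that depends on Rap1, and the description below puts most weight on the genes outside that set.

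Counts were scaled in 2 ways. The first divides by size factors of Schizosaccharomyces pombe cells that had been added as a spike-in, so that a rise or loss of mRNA over the whole S. cerevisiae transcriptome is kept. The second is TMM (trimmed mean of M-values) on the S. cerevisiae counts, which sets the typical gene to no change. The 6 libraries held 26671489 to 29090954 S. cerevisiae counts and 1336519 to 2226630 S. pombe counts, with 6037 to 6105 genes at 10 counts or more. S. cerevisiae counts divided by S. pombe counts gave 17.9 ± 2.91 in the DMSO libraries and 12.7 ± 0.246 in the IAA libraries (mean ± SD, n = 3), a log2 difference of -0.48 for which the two-sided exact permutation p was 0.1, the smallest that 3 libraries against 3 allow. Fewer cells mixed with the spike-in and less mRNA per cell cannot be told apart in this ratio. Of 6254 genes tested, the median log2 fold change (IAA against DMSO) was -0.26 under S. pombe scaling and 0.07 under TMM, and this shift of all genes lies under every pair of values given below.

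Calls needed both an adjusted p under 0.05 in edgeR's quasi-likelihood test and an absolute log2 fold change over 1. Under S. pombe scaling 25 genes (0.4% of those tested) were called higher and 256 (4.09%) lower after IAA, and under TMM 62 (0.991%) were called higher and 192 (3.07%) lower. All 25 and all 192 were called under both scalings. Of the 192, 111 were RP genes and 81 lay outside them, and none of the genes called higher was an RP gene. Of the 6117 tested genes outside the RP genes, 128 (2.09%) were thus called lower under S. pombe scaling, 81 (1.32%) under both scalings and 25 (0.409%) higher. Log2 fold changes had a median standard error (SE) of 0.31 under S. pombe scaling and 0.093 under TMM. Below, called without further words means called under both scalings, normalised counts means raw counts over a library's S. pombe size factor, and fold changes with an SE are from the S. pombe scaling unless TMM is named. For all 217 of these genes the 3 IAA libraries lay outside the range of the 3 DMSO libraries, but lack of overlap alone is common in this comparison, with 3440 genes lower and 171 higher without overlap under S. pombe scaling.

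**Figure D1:**
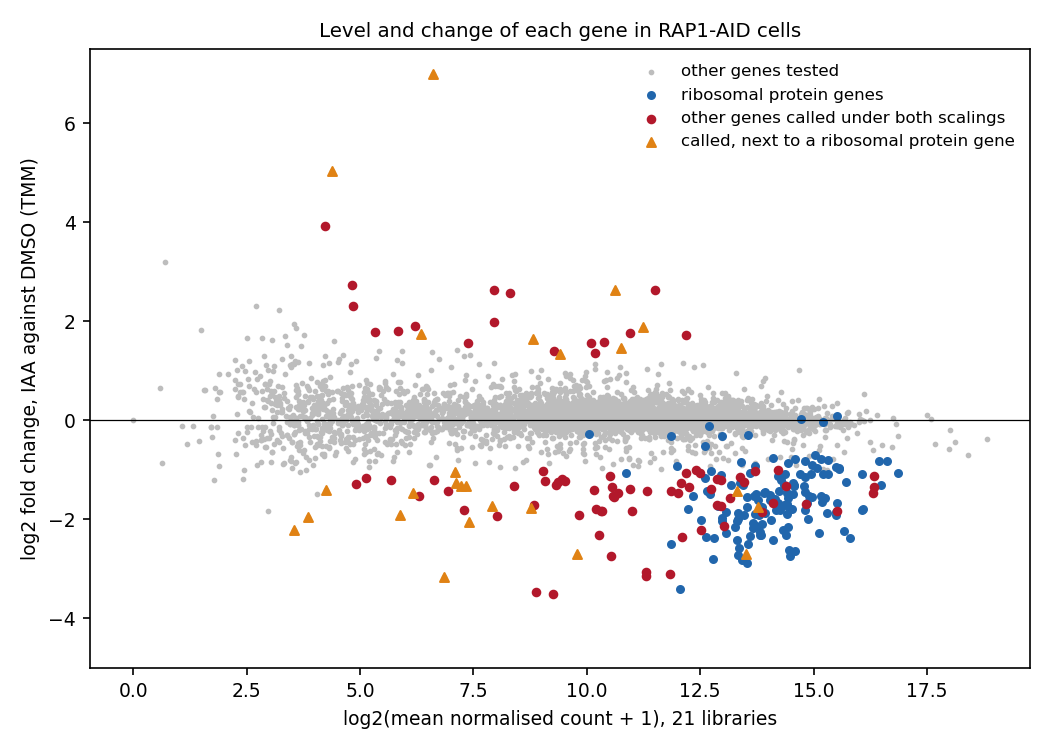
Mean level of each tested gene over the 21 libraries (log2 of the mean normalised count plus 1, horizontal axis) and its log2 fold change, IAA against DMSO in RAP1-AID cells under TMM (vertical axis), with 1 point per gene. RP genes (blue) lie at high levels and mostly below -1, the other genes called under both scalings (red, and orange triangles where next to an RP gene) are spread over the whole range of levels, and the highest point is YLR184W at 6.99.

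The RNA of RAP1 itself does not report the depletion, because the degron acts on the protein. RAP1 (YNL216W, chromosome XIV, 241689 to 244172) had 5251, 5192 and 6455 normalised counts in the DMSO libraries and 6339, 5829.9 and 6141 in the IAA libraries. These ranges overlapped, and the gene was not called (0.12 ± 0.31 on the log2 scale, edgeR adjusted p = 0.847, and 0.44 under TMM). Of the marker alleles in the labels, URA3 had no count and LEU2 0 to 2 raw counts in each of the 6 libraries, and HIS3, of which his3D1 lacks an internal stretch, had 1246 to 1414 raw counts. The paper lists the osTIR insertion of this strain with a LEU2 marker, and why LEU2 had almost no counts was not tested. MET17, which the labels list as met15D0, had 2391 to 6553 normalised counts, so the counts go against that part of the genotype. Markers of MATa cells were present in all 6 libraries, the lowest being AGA2, the binding subunit of a-agglutinin, with at least 1274 normalised counts. The alpha-specific SAG1 was also present, at 2435 to 3239 normalised counts.

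Matches to the Rap1 consensus are shown first for genes the results turn on, and binding was not measured here. Upstream windows of 500 bases before the start codon were searched on both strands for a core of the Rap1 consensus, the 9 letters ACCCNNACA directly preceded by a C, where N is any base. Of the 5798 tested genes found in the reference, 129 (2.22%) had a match, against 29 of 137 RP genes (21.2%), 17 of the 69 called lower genes outside the RP genes that were in the reference (24.6%, exact binomial 95% interval 15.1 to 36.5) and 5 of 19 called higher genes (26.3%, interval 9.15 to 51.2). In 3 of these 5, YOR292C, NAT3 and YGK3, the match is the same site that was counted for RPS10A, RPS23B and RPL25. The shares of rising genes and RP genes are thus not separate. A match is a run of letters and not a binding site, and its absence says nothing about Rap1. The lines below give the match in capitals with 10 bases of lower-case flank on each side, read 5′ to 3′ on the strand that carries it, from the RefSeq sequence of S. cerevisiae R64 with 1-based positions, and all of these windows are intergenic in the annotation. The first 9 belong to genes outside the RP genes that fell, the next 3 lie between an RP gene that fell and a head-to-head neighbour that rose, and the last belongs to an RP gene that the study examined.
PRO1 (minus strand, chrIV:1062949-1062978): aaataaatagCACCCACACAtcgcatgatg
ENO1 (plus strand, chrVII:1000449-1000478): actaggatagCACCCAAACAcctgcatatt
CMS1 (minus strand, chrXII:157853-157882): tattcaaagaCACCCAAACAttcattgcac
TIP1 (plus strand, chrII:372919-372948): gagacatattCACCCTTACAgcaaaccttt
NNR2 (minus strand, chrXI:166096-166125): aaggagcacaCACCCACACAcgactccttt
CAF40 (plus strand, chrXIV:90033-90062): ggaaaaactcCACCCACACAcctcaacatg
MUB1 (minus strand, chrXIII:465809-465838): tgccactgaaCACCCATACAatacataacc
RRP14 (minus strand, chrXI:282492-282521): taaaaagtttCACCCAGACAccaaattgaa
TEF2 (plus strand, chrII:477225-477254): attcatgttgCACCCACACAtttatacacc
YOR292C and RPS10A (minus strand, chrXV:866748-866777): accggtgtaaCACCCATACAaacccagaat
NAT3 and RPS23B (plus strand, chrXVI:794646-794675): catctccaaaCACCCATACAtatttatatt
YGK3 and RPL25 (minus strand, chrXV:79940-79969): tccatgtaaaCACCCGTACAtattaaataa
RPL40B (plus strand, chrXI:618974-619003): ggaaagattgCACCCAGACAactacacaaa

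The match lay a median of 193 bases from the start codon in the 17 genes outside the RP genes and 322 bases in the 25 called RP genes that had one, with ranges of 118 to 476 and 153 to 464 bases. In PRO1, CMS1, NNR2 and RRP14 it lay 167, 132, 175 and 172 bases from the start codon, and in ENO1, MUB1 and TEF2 it lay 458, 471 and 426 bases away. None of the 9 RP genes that were not called had a match in the window.

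Outside the RP genes, the largest falls were in genes of unrelated functions. YPL162C (chromosome XVI, 243206 to 244027), which encodes an uncharacterised protein, had 1108, 1061 and 1274 normalised counts with DMSO and 82.7, 77.4 and 80.9 with IAA. The IAA libraries thus held 7% of the DMSO level, the largest log2 fall of all genes tested (-3.84 ± 0.34 on the log2 scale, edgeR adjusted p = 1.54e-25, and -3.51 under TMM). SCP1 (YOR367W, chromosome XV, 1026007 to 1026609), a cross-linker of the cortical actin cytoskeleton, went from 816, 814 and 1009.6 to 49.0, 63.6 and 77.2 (-3.79 ± 0.35, edgeR adjusted p = 8.85e-25). The 2 genes have no match in their windows, and in both every IAA library lay far below every DMSO library. PRO1 (YDR300C, chromosome IV, 1061505 to 1062791), whose product catalyses the first step of proline synthesis, had 4186, 4093 and 5578 normalised counts with DMSO and 428, 394 and 419.8 with IAA (-3.48 ± 0.34, edgeR adjusted p = 2.98e-21). CMS1 (YLR003C, chromosome XII, 156855 to 157730), a putative component of preribosomes, fell from 4291, 4109.8 and 5382 to 462, 424 and 432 (-3.39 ± 0.34, edgeR adjusted p = 9.50e-21). In all 4 genes DMSO replicate 3 had the highest normalised count of the DMSO libraries, and the groups were far apart. That library had a smaller S. pombe size factor (0.665) than DMSO replicates 1 and 2 (0.876 and 0.830). By raw counts it was the highest DMSO library for PRO1 alone.

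**Figure D2:**
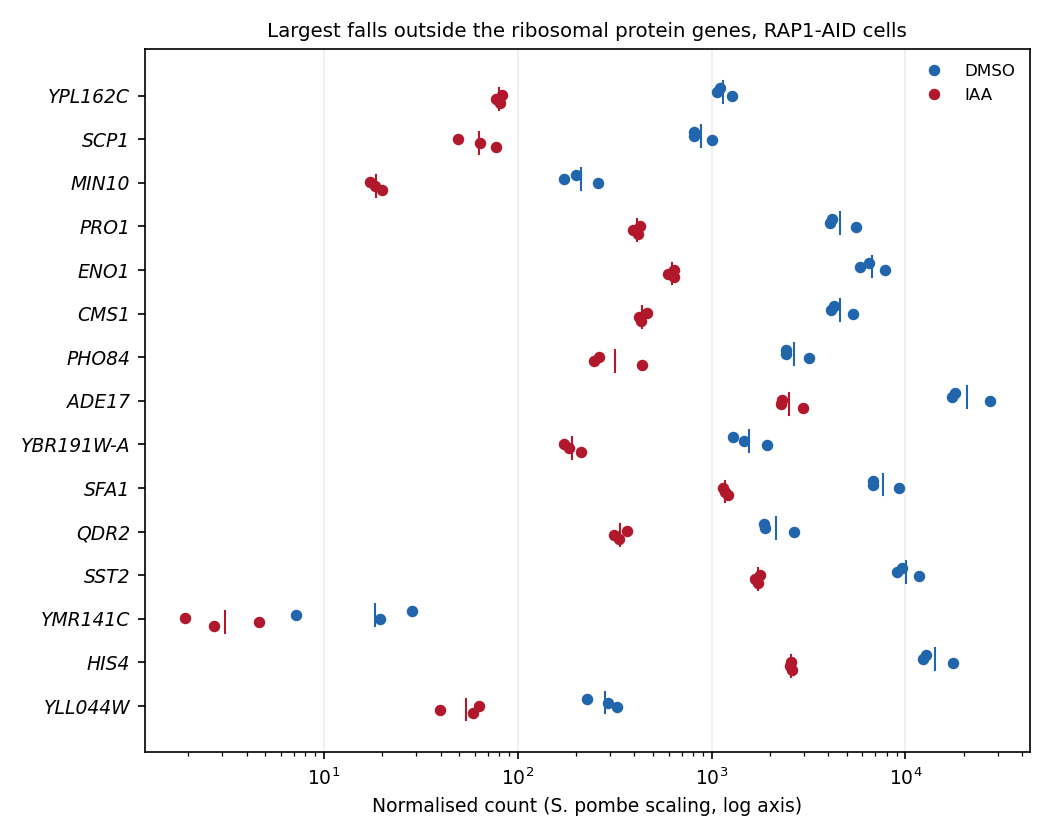
Normalised counts (S. pombe scaling, log axis) of the 15 genes outside the RP genes with the largest fall, with 1 point per library for DMSO (blue) and IAA (red) and a vertical bar at the mean of the 3 libraries of a group. The 2 groups are apart in all 15 genes, by the least in YMR141C, where DMSO replicate 2 had 7.22 and the highest IAA library 4.61.

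The remaining large falls include enzymes and transporters. PHO84 (YML123C, chromosome XIII, 24037 to 25800), the high-affinity phosphate transporter, had 2415, 2407 and 3175 normalised counts with DMSO and 262, 249 and 439 with IAA (-3.07 ± 0.35, edgeR adjusted p = 4.88e-16). Its level in DMSO-treated RAP1-AID cells was itself far below the 40079 to 62124 of the WT libraries, as described below. SFA1 (YDL168W), an alcohol dehydrogenase that also oxidises formaldehyde bound to glutathione, kept 15.5% of its level (-2.69 ± 0.33, edgeR adjusted p = 2.06e-13). QDR2 (YIL121W), a multidrug and cation transporter of the plasma membrane, kept 15.8% (-2.66 ± 0.33, edgeR adjusted p = 1.25e-13). SST2 (YLR452C), the GTPase-activating protein that ends the response to mating pheromone, kept 17.1% (-2.54 ± 0.33, edgeR adjusted p = 2.99e-12). HIS4 (YCL030C, chromosome III, 65934 to 68333), a histidine biosynthesis gene long studied as a Rap1 target, had 12734, 12332 and 17598 normalised counts with DMSO and 2576, 2537 and 2589 with IAA (-2.47 ± 0.34, edgeR adjusted p = 3.54e-11). It was the sole member of a list of 24 genes of Gcn4-type amino acid biosynthesis to be called, and the median of that list was -0.53, or -0.20 under TMM, against -0.26 and 0.07 over all genes.

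Some of the falls belong to reading frames beside RP genes. Of the 81 genes called lower outside the RP genes, 64 were not next to an RP gene (of 5883 such genes tested), and 9 of the 14 reading frames that overlap an RP gene on the opposite strand were called. These 9 dubious frames, such as YLL044W across from RPL8B (-2.38 ± 0.36, edgeR adjusted p = 4.19e-09), had counts between 0.163% and 0.625% of those of the RP gene in the DMSO libraries with log2 fold changes from -2.38 to -1.36 where the RP genes had -2.71 to -1.63. Whether they are transcripts of their own or a small share of reads assigned to the wrong strand was not tested. YBR191W-A starts 8 bases downstream of RPL21A on the same strand and kept 12.1% (-3.04 ± 0.33, edgeR adjusted p = 1.23e-17), and MIN10, a mitochondrial protein encoded 272 bases upstream of RPL29 on the same strand, kept 8.80% (-3.50 ± 0.41, edgeR adjusted p = 1.16e-14). RPL21A and RPL29 themselves changed by -2.95 and -3.14. YMR141C, 161 bases downstream of RPL13B, had only 28.5, 7.22 and 19.6 normalised counts with DMSO against 1.92, 4.61 and 2.73 with IAA, and it lost its call when DMSO replicate 1 was left out (edgeR adjusted p = 0.121). ADE17 lies 453 bases downstream of RPL15B, an RP gene that was not called, and had high counts of its own (17399 to 27151 with DMSO, 2293 to 2968 with IAA).

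Purine and one-carbon genes were a group among the falls, a list put together after the values had been seen. Of its 20 genes 8 were called lower, none was called higher, and the median log2 fold change was -0.97 (-0.63 under TMM). Over all genes outside the RP genes 1.32% were called lower, and the median over all genes was -0.26 (0.07 under TMM), but a list chosen on these values cannot be read against them. ADE17, which carries out the last steps of purine synthesis, changed by -3.05 ± 0.35 (edgeR adjusted p = 4.80e-16), whereas its paralogue ADE16 changed by -0.36 and was not called. SHM2, the cytosolic serine hydroxymethyltransferase that feeds one-carbon units into the pathway, went from 25612, 24518 and 34608 normalised counts to 6879, 6753 and 7412 (-2.01 ± 0.33, edgeR adjusted p = 8.28e-08). The other called members were HPT1, ADE12, ADE2, ADE1, MTD1 and ADE13, with log2 fold changes from -1.58 to -1.35. Members of the glycine cleavage system, GCV1, GCV2 and GCV3, had values of -0.64, -0.54 and -0.50 and were not called.

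Glycolytic genes changed by very different amounts rather than moving as 1 block. Of 20 glycolytic and fermentation genes, 4 were called lower and 1 higher, with a median of -0.82 (-0.49 under TMM). Of all genes outside the RP genes, 1.32% were called lower and 0.409% higher. By sign, 14 of the 20 lay below 0 under TMM, where 2045 of the 6254 tested genes did. ENO1 (YGR254W, chromosome VII, 1000927 to 1002240), an enolase, had 6463, 5849.8 and 7853 normalised counts with DMSO and 638, 597 and 637 with IAA (-3.43 ± 0.35, edgeR adjusted p = 1.65e-19). Its paralogue ENO2 had a log2 fold change of -0.90 and was not called (under TMM -0.58, edgeR adjusted p = 5.87e-05). PGI1, the glucose-6-phosphate isomerase, fell from 70586, 69806 and 90882 normalised counts to 17301, 16920.1 and 17191 (-2.17 ± 0.33, edgeR adjusted p = 2.96e-09). ADH1 and PGK1, the main alcohol dehydrogenase of fermentation and phosphoglycerate kinase, kept 29.0% and 31.2% of their DMSO level (-1.78 and -1.68). CDC19, the main pyruvate kinase, kept 58.8% (-0.77, edgeR adjusted p = 0.199), and TPI1, GPM1, FBA1 and TDH3 lay between -0.97 and -0.70 without a call. Under TMM these genes, CDC19 included, had log2 fold changes from -0.64 to -0.37. Their edgeR adjusted p values there were 0.00035 (TPI1) to 0.0082 (TDH3), so they fell but missed the fold threshold. In the other direction TDH1, a glyceraldehyde-3-phosphate dehydrogenase isozyme, rose from 807, 698 and 843 to 2111, 1822 and 1735 (1.27 ± 0.31, edgeR adjusted p = 0.00105).

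Among 14 genes described as direct Rap1 promoter targets outside the RP genes, the 5 called lower were ENO1, HIS4, ADH1, PGK1 and TEF2, and the median was -0.94 (-0.61 under TMM). Over all genes outside the RP genes 1.32% were called lower. TEF2, a translation elongation factor gene, changed by -1.46 ± 0.32 (edgeR adjusted p = 0.000154), and its paralogue TEF1, at -0.92, was not called (under TMM -0.59, edgeR adjusted p = 2.92e-06). Over 20 translation factors TEF2 was the sole call, and the list median was -0.46, or -0.13 under TMM. The regulators that act with Rap1 at RP and glycolytic promoters were mostly not called. Of 12, TYE7, a basic helix-loop-helix activator of glycolytic genes, was called lower (2323, 2003 and 2878 with DMSO against 695, 628 and 651 with IAA, -1.87 ± 0.31, edgeR adjusted p = 1.56e-07), and GCR1, SFP1, IFH1, HMO1 and FHL1 had values of -0.69, -0.66, -0.48, -0.36 and -0.34 without a call.

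Genes linked to glycerol were a further group noted after seeing the values. GPD1 and GPD2, the glycerol-3-phosphate dehydrogenases, GPP1, a glycerol-3-phosphate phosphatase, and GUP1, which is not an enzyme of glycerol synthesis, were called lower among 10 such genes, where 1.32% of all genes outside the RP genes were. The list median was -0.80 (-0.47 under TMM), and the list was likewise chosen on these values. GPD1 went from 1971, 1865 and 2361 normalised counts to 454, 459 and 474 (-2.16 ± 0.32, edgeR adjusted p = 1.21e-09), and GPP1 kept 23.8% (-2.07 ± 0.33, edgeR adjusted p = 2.86e-08). The stress-responsive paralogue GPP2 had a value of 0.36 and was not called. In STH1-AID cells GPD1 was 2.03 higher on the log2 scale with IAA than with DMSO, and the difference between the strains, tested as an interaction, was -4.19.

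**Figure D3:**
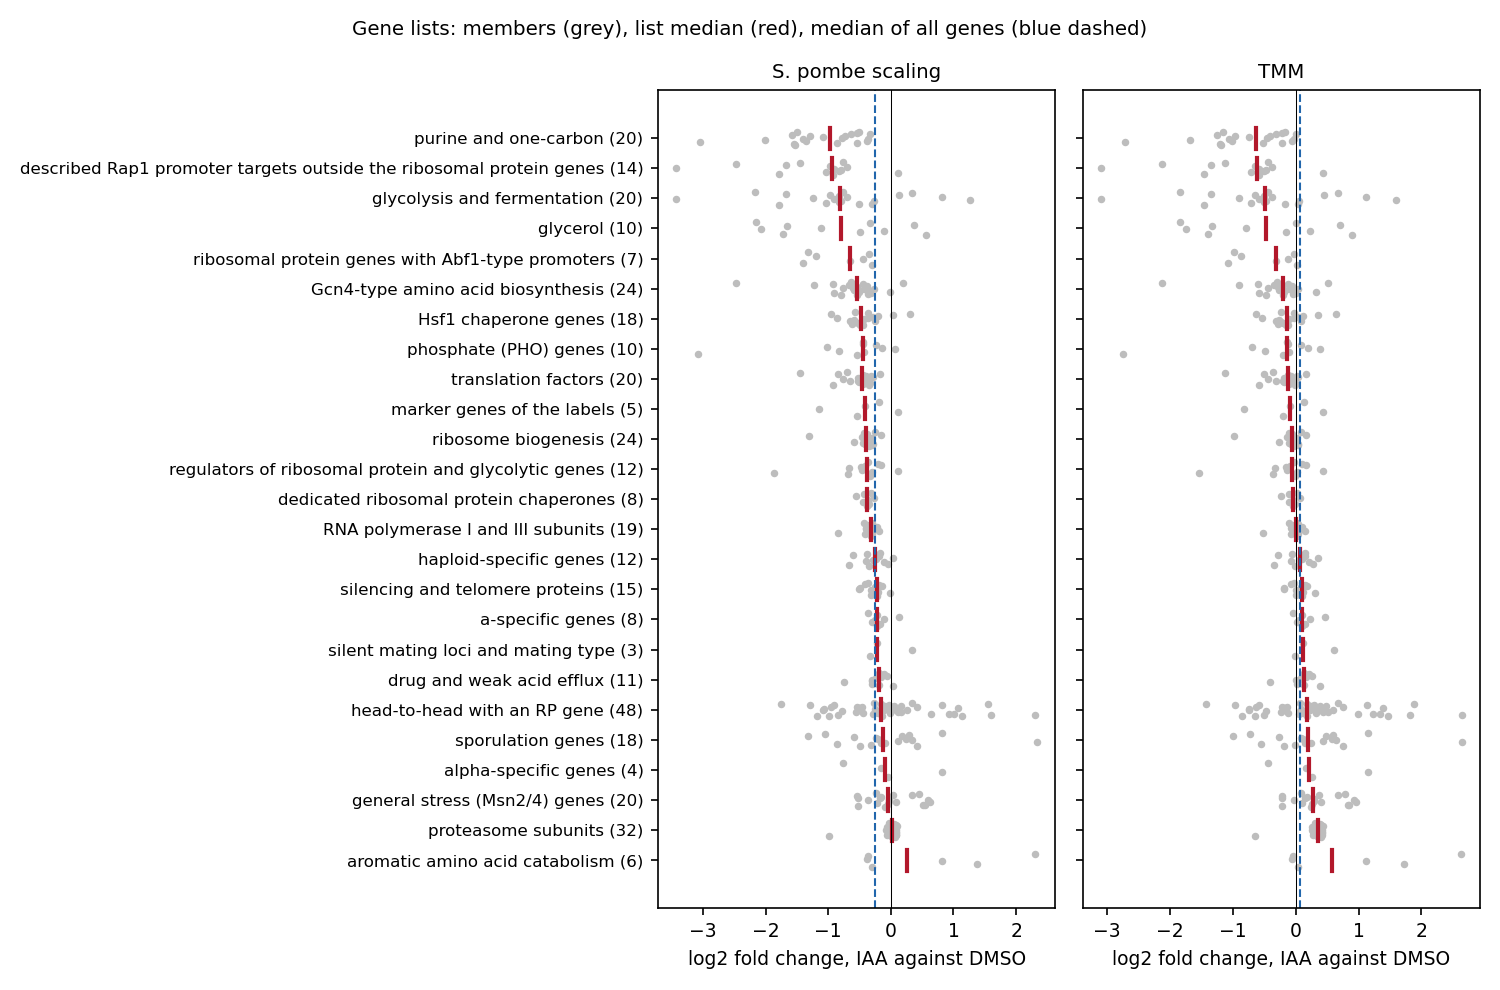
Log2 fold change, IAA against DMSO in RAP1-AID cells, of the members of each gene list (grey points, number of genes in brackets), with the list median (red bar) and the median of all genes (dashed blue line), under S. pombe scaling (left) and TMM (right). Of the lists drawn, the purine and one-carbon list has the lowest median (-0.97 and -0.63), glycolytic genes spread from -3.43 to 1.27 under S. pombe scaling, and the proteasome subunits lie close together apart from PRE2.

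Many lists held no called gene. There was none among 8 dedicated RP chaperones (median -0.37), 19 subunits of RNA polymerases I and III (-0.32), 32 proteasome subunits (0.02), 18 Hsf1-dependent chaperone genes (-0.47), 20 general stress genes of the Msn2/4 type (-0.04) and 15 silencing and telomere proteins (-0.23). Under TMM the medians were 0.36 for the proteasome subunits and 0.28 for the general stress genes, against 0.07 over all genes. Every proteasome subunit had an edgeR adjusted p under 0.05 there but missed the fold threshold. PRE2 (-0.65 under TMM) fell and the other subunits rose. Of 24 ribosome biogenesis genes none was called under both scalings (median -0.39, or -0.06 under TMM). Within that list NSR1 was called lower under S. pombe scaling alone (-1.31, or -0.98 under TMM). The list does not hold every gene of the process, and CMS1, called lower above, is not in it. Of 56 mitochondrial RP genes MRPL49 was called (-2.04 ± 0.32, edgeR adjusted p = 9.41e-09), and the median was -0.22, near that of all genes.

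Most RP genes fell, but to very different degrees. All 137 were tested, 128 were called lower under S. pombe scaling and 111 under both, and the median log2 fold change was -1.91 (-1.58 under TMM). Together they made up 13.8 ± 0.25% of all S. cerevisiae counts in the DMSO libraries and 5.89 ± 0.237% in the IAA libraries (mean ± SD, n = 3). The largest fall was that of RPS25B (YLR333C, chromosome XII, 795573 to 795899), which went from 7102, 7365 and 9395 normalised counts to 595, 607 and 579.7 (-3.74 ± 0.35, edgeR adjusted p = 3.08e-23). RPS26B, RPL42A, RPL29, RPL20A and RPL21B followed, with log2 fold changes from -3.20 to -3.05. Genes with an intron (85 of 89 called under S. pombe scaling) and without (43 of 48) were called at similar shares, with medians of -1.93 and -1.79.

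The 9 RP genes that were not called under either scaling were RPS9A, RPS22B, RPL18B, RPL39, RPL15B, RPS28B, RPP1A, RPS28A and RPP2B. RPP2B, a stalk protein gene, had 46330.3, 46356 and 60604 normalised counts with DMSO and 41297, 43212 and 45189.7 with IAA (-0.24 ± 0.32, edgeR adjusted p = 0.784). RPS28A had 26603, 27639 and 35516 against 23207, 23843 and 25429.8 (-0.31 ± 0.32, edgeR adjusted p = 0.784). In both genes the IAA libraries lay just below the DMSO libraries, and under TMM the values were 0.09 and 0.02. RPP1A, RPS22B, RPS28A and RPS28B are among the 7 RP genes known for promoters of the Abf1 type, and of that list RPL3 alone was called (-1.40 ± 0.31, edgeR adjusted p = 0.000292), with a median of -0.65 over the 7.

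Duplicated RP genes could differ from each other. Of 59 paralogue pairs, 41 had both copies called, 15 had 1 copy called and 3 had none, and the median absolute difference between copies was 0.53 on the log2 scale. The widest pair was RPS9, where RPS9B kept 12.7% of its DMSO level (39157, 40738 and 52439.8 against 5219.6, 5564 and 6021, -2.98) and RPS9A kept 56.2% (7597, 7548 and 8996 against 4365, 4545 and 4653, -0.83). RPL20A and RPL20B had values of -3.08 and -1.11, and RPS27A and RPS27B -2.71 and -1.16. Differences between copies were not tested, and since reads matching both copies were discarded, each copy is counted from the bases in which it differs from the other.

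Rises were fewer, and the largest were in reading frames with almost no counts before IAA. YLR184W (chromosome XII, 522106 to 522453), a dubious frame 209 bases upstream of RPL37A on the same strand, had raw counts of 2, 1 and 1 in the DMSO libraries and 203, 191 and 228 in the IAA libraries. Scaled by the spike-in, the IAA total was 114 times the DMSO total, with an interval of 44.4 to 421 that covers counting error only (log2 fold change 6.74 ± 0.60, edgeR adjusted p = 8.74e-26). RPL37A itself fell by 2.67 on the log2 scale. YLR334C lies 798 bases upstream of RPS25B, the RP gene with the largest fall, also on its strand, and had 1 raw count in each DMSO library against 43, 47 and 33 with IAA (ratio 30.1, interval 10.1 to 148, edgeR adjusted p = 2.87e-09). YDR544C, a frame near the right end of chromosome IV, had 1, 3 and 2 raw counts with DMSO and 34, 41 and 32 with IAA (ratio 13.1, interval 5.83 to 36.5, edgeR adjusted p = 8.12e-07). Of the 56 tested genes that lie upstream of an RP gene on its strand, 3 rose (5.36%) and 2 fell (3.57%), and the median was -0.32 (0.00 under TMM). Among all genes outside the RP genes 0.409% were called higher and 1.32% lower. The filter on low counts looked at all groups, so YLR184W and YLR334C could pass it through groups where they are high. The share that rose therefore leans towards such genes. YBR190W, which overlaps RPL21A on the same strand and was named after its values were seen, changed by 1.44 ± 0.40 (edgeR adjusted p = 0.00838).

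Genes with known products also rose. ARO10, a phenylpyruvate decarboxylase of aromatic amino acid breakdown, had 877, 904 and 1171 normalised counts with DMSO and 4867, 4864 and 4842 with IAA (2.30 ± 0.32, edgeR adjusted p = 5.52e-11). ARO9, the aromatic aminotransferase of the same pathway, rose from 2386, 2206 and 3139 to 6838, 6741 and 6567 (1.38 ± 0.32, edgeR adjusted p = 0.000437). They were the called members of 6 genes of that pathway, whose regulator ARO80 had a value of -0.37. The list median was 0.26 (0.58 under TMM), and 0.409% of all genes outside the RP genes were called higher. This list too was put together after the values had been seen, so it cannot be read against that share. SGA1, the sporulation glucoamylase, was 5.06 times its DMSO level (2.34 ± 0.36, edgeR adjusted p = 5.53e-09) and HXT5, a hexose transporter of moderate affinity, 4.77 times (2.26 ± 0.36, edgeR adjusted p = 1.79e-08). Of 18 sporulation genes SGA1 was the sole call (median -0.12, or 0.20 under TMM). The other rises among the 12 largest outside the RP genes were YBL044W, YIL100C-A and YOR161C-C, frames without a named product, at 2.42, 1.98 and 1.59, of which YIL100C-A lost its call without DMSO replicate 1 (edgeR adjusted p = 0.0592). YRO2, a membrane protein linked to acid stress, was 3.17 times its DMSO level (1.67 ± 0.33, edgeR adjusted p = 2.49e-05).

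Further rises were in genes that share a promoter region with a gene that fell. Over the genome 1195 head-to-head pairs (opposite strands, starts facing apart and at most 1000 bases between them) had both genes tested, and in 5 of them 1 gene was called higher and the other lower. In 4 of the 5 the falling gene was an RP gene. YOR292C, which encodes an uncharacterised protein and starts 515 bases from RPS10A, rose from 463, 482 and 645 normalised counts to 2635, 2635 and 2597 (2.31 ± 0.32, edgeR adjusted p = 4.04e-11), while RPS10A went from 19946, 20168 and 26701 to 5551, 5797 and 6186 (-1.93 ± 0.33, edgeR adjusted p = 3.21e-07). RXT3, a component of the Rpd3L histone deacetylase, starts 673 bases from RPL31A and rose from 1175, 1086 and 1444 to 3759, 3507 and 3630.0 (1.56 ± 0.31, edgeR adjusted p = 2.10e-05). In these genes the groups were well apart in both directions.

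NAT3, the catalytic subunit of the NatB acetyltransferase, 466 bases from RPS23B, and YGK3, a kinase related to GSK-3, 868 bases from RPL25, rose by less (1.14 ± 0.30, edgeR adjusted p = 0.0051, and 1.01 ± 0.31, edgeR adjusted p = 0.0262), and NAT3 lost its call without DMSO replicate 1 or 2 (edgeR adjusted p = 0.063 and 0.0649). The pair outside the RP genes was THI73, a putative permease (1.25 ± 0.36, edgeR adjusted p = 0.0133), and SSL1, a subunit of the transcription factor TFIIH (-1.73 ± 0.31, edgeR adjusted p = 1.39e-06). THI73 also lies directly upstream of CMS1 on the same strand. Most neighbours of RP genes were not called. Of 38 head-to-head partners of a called RP gene, 4 were called higher and 1, TSR1, lower, with a median of -0.18 (0.15 under TMM) against -0.24 (0.09) over all 2335 genes of such pairs outside the RP genes, of which 11 were called higher and 26 lower. In 4 pairs both genes fell, namely RPS16A with RPL13B, RPS16B with RPL13A, RPS29B with TSR1, and OPI3 with MOG1.

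**Figure D4:**
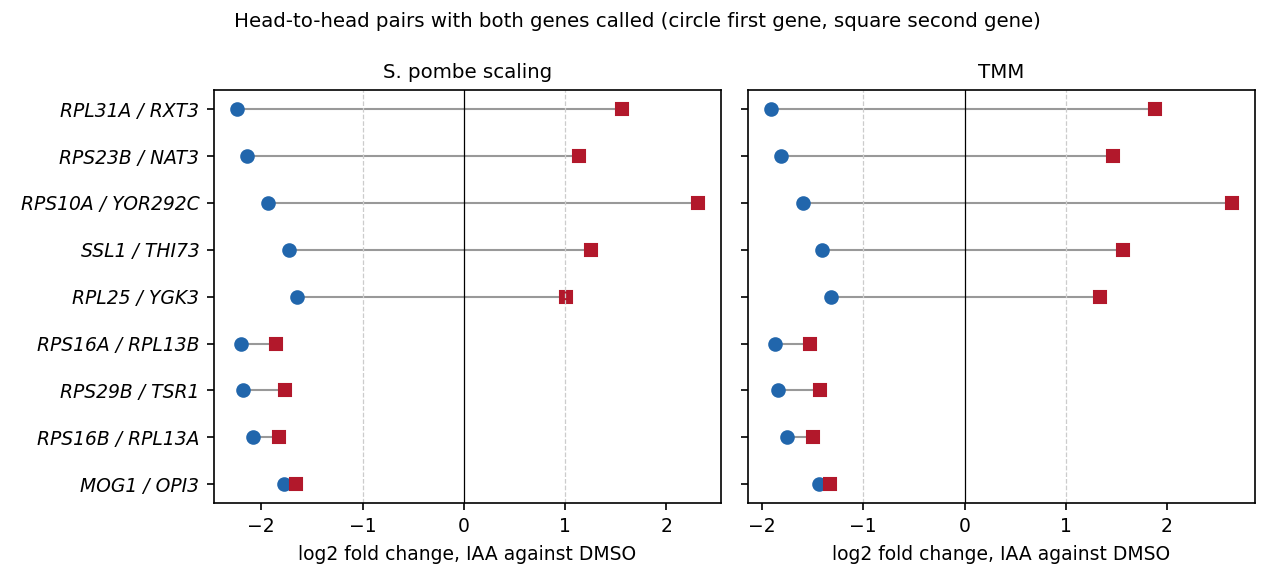
Log2 fold change, IAA against DMSO in RAP1-AID cells, of both genes in the 9 head-to-head pairs in which both were called, under S. pombe scaling (left) and TMM (right), with circles for the first gene named and squares for the second and dashed lines at -1 and 1. In the upper 5 pairs the second gene rose (from 1.01 to 2.31 under S. pombe scaling) and the first fell, and in the lower 4 both fell.

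At the other RP promoters that the study examined for divergent transcription, the annotated neighbour was not called. RPL40B fell from 18918, 19277 and 25295 normalised counts to 2944, 2875 and 3073 (-2.84 ± 0.34, edgeR adjusted p = 3.35e-14), and MLP1, whose start is 1054 bases away, had a value of -0.56 (edgeR adjusted p = 0.777). RPL43B changed by -1.81 ± 0.33 (edgeR adjusted p = 1.71e-06), and IME1, 2653 bases away, by -0.16 (edgeR adjusted p = 0.812). The counts cover annotated protein-coding genes, so noncoding transcripts from these promoters were not measured here.

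The genes selected in RAP1-AID cells were looked up in the 6 STH1-AID RAP1-AID libraries. The fold changes behind the choice compare RAP1-AID libraries only. The STH1-AID RAP1-AID libraries did share the filter, the scaling and the estimate of spread of the fit, so they were not fully apart from the choice. Of the 81 lower genes outside the RP genes, 55 (67.9%) were called lower with IAA in that strain under S. pombe scaling, where 32.6% of all genes were, and 34 (42.0%) under TMM, where 6.57% of all genes were. Of the 25 higher genes, 14 (56.0%) were called higher, against 3.49% of all genes, and 19 (76.0%) under TMM, against 8.65%. ENO1, PRO1 and CMS1 had log2 fold changes of -2.27, -2.41 and -2.94 there, and YLR184W, YOR292C and ARO10 had 5.90, 1.62 and 1.58. RXT3 and NAT3 were exceptions, with values of 0.05 and -0.20.

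In STH1-AID cells, which carry osTIR but no tag on Rap1, few of the falling genes were called lower and a larger share of the rising genes was called higher. Of the 81, IAA called 8 lower and 3 higher under S. pombe scaling (42.7% and 4.69% of all genes) and 1 lower and 22 higher under TMM (15.4% of all genes in each direction). Of the 25, 9 were called higher under S. pombe scaling and 16 under TMM. SGA1, TKL2, STF1, ARO9 and TDH1 had values of 2.29, 1.17, 1.36, 1.72 and 1.11 in STH1-AID cells, close to their 2.34, 1.09, 1.30, 1.38 and 1.27 in RAP1-AID cells, whereas YOR292C, RXT3 and NAT3 had 0.34, -0.13 and -0.01. The difference of the effects of IAA (RAP1-AID minus STH1-AID), tested as an interaction, was called lower for 60 of the 81 falling genes under S. pombe scaling (6.27% of all genes) and 78 under TMM (15%), and higher for 8 and 5 of the 25 rising genes (32.3% and 17.3%). The genes were chosen on the same RAP1-AID libraries that enter this difference, which favours a difference in the direction of the choice, so these counts are a description and the shares of all genes are no baseline for them.

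DMSO-treated RAP1-AID cells already differed from WT before IAA was added, and the comparison above does not show this. Of all genes, 742 (11.9%) were called higher and 56 (0.895%) lower than in WT under S. pombe scaling, and 287 (4.59%) higher and 155 (2.48%) lower under TMM. Tag, osTIR and DMSO cannot be told apart in this contrast. The count of higher genes under S. pombe scaling rested on single WT libraries, with 494 when WT replicate 1 and 1169 when WT replicate 2 was left out. Of the genes described above, MOG1, NNR2 and PHO84 were lower than in WT (-1.69, -2.22 and -4.24), and ARO10 and TKL2 were higher (3.12 and 2.53). This contrast and the effect of IAA share the DMSO libraries. Of 10 genes of the phosphate (PHO) regulon, a list added after the values were seen, 9 were called lower than in WT under both scalings, and with IAA PHO84 was the sole member called (median -0.45, or -0.13 under TMM).

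Genes near chromosome ends stood out in the contrast with WT. Of 256 genes within 15 kb of an end, 155 passed the filter on low counts. That filter looked at all groups, so a gene silent in WT could pass through the RAP1-tagged groups where it is high. The shares and medians of tested genes below therefore lean towards genes higher in those groups. Of 155 tested genes within 15 kb of an end, 104 (67.1%) were higher in DMSO-treated RAP1-AID cells than in WT under S. pombe scaling and 80 (51.6%) under TMM, against 10.5% and 3.39% of the other genes, and their medians were 1.97 and 1.44 against 0.51 and -0.02. The share called higher under both scalings went down with distance, from 74.4% of 39 genes in the outer 5 kb through 50% of 58 and 37.9% of 58 in the next bins of 5 kb to 16.7% of 60 between 15 and 20 kb and 3.17% of 5556 beyond 50 kb. DMSO-treated STH1-AID RAP1-AID cells, which carry the same RAP1 tag, had 89 of the 155 higher than the same WT libraries under S. pombe scaling (5.21% of all genes) and 98 under TMM (6.33%). STH1-AID cells, which have osTIR and DMSO but no tag on Rap1, had 5 (1.04% of all genes) and 7 (1.2%). Set against STH1-AID cells with DMSO rather than WT, 83 of the 155 were higher in RAP1-AID cells under S. pombe scaling (6.14% of all genes) and 74 under TMM (3.26%).

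**Figure D5:**
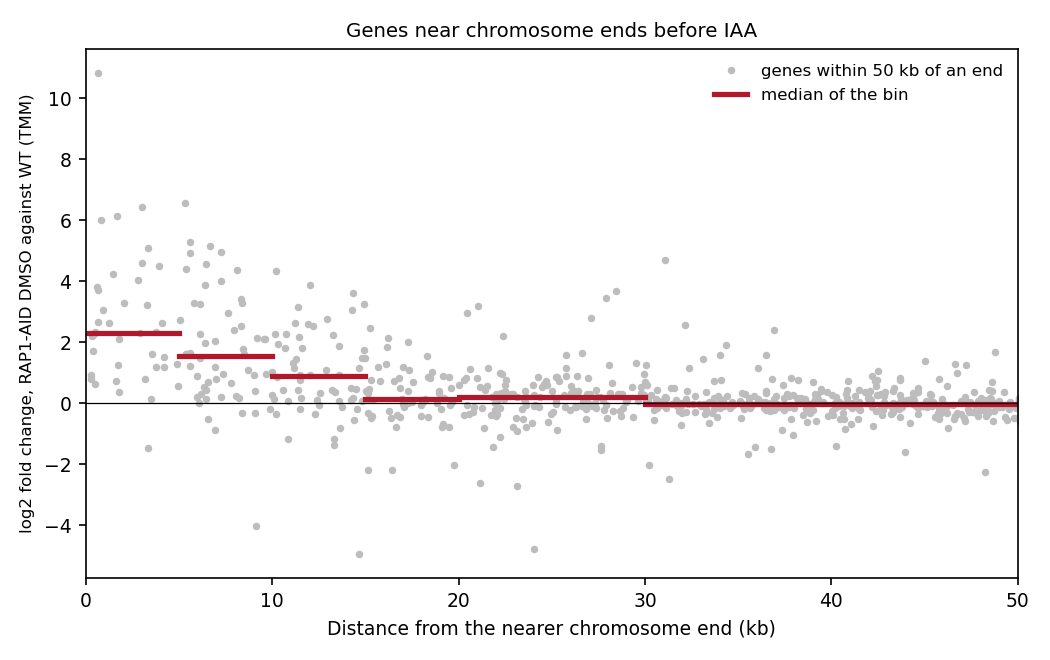
Log2 fold change of DMSO-treated RAP1-AID cells against WT (TMM) by distance from the nearer chromosome end in kb, for genes within 50 kb (1 grey point per gene) and the median of each bin (red bars). The bin medians go from 2.30 in the outer 5 kb through 1.53 and 0.89 to 0.13 between 15 and 20 kb.

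IMD2, an inosine monophosphate dehydrogenase gene 6676 bases from the end of chromosome VIII, had 159, 124 and 158 normalised counts in WT and 7208, 7220.1 and 9898 in DMSO-treated RAP1-AID cells (5.78 ± 0.39, edgeR adjusted p = 7.1e-47, and 5.16 under TMM). COS12, of a family of endosomal proteins, 2790 bases from an end of chromosome VII, had 32.3, 46.0 and 36.1 in WT and 983, 814 and 909 in RAP1-AID cells (4.57 ± 0.37, edgeR adjusted p = 1.7e-31), and YFR057W, 645 bases from an end of chromosome VI, had no count in the 3 WT libraries and 361, 311 and 348 normalised counts in RAP1-AID cells. A count of 0 allows up to 3 counts per library, which is 2.85 to 4.60 normalised counts in the WT libraries. In each of them every RAP1-AID library lay above every WT library. Genes of such families have close copies elsewhere and are counted from their unique parts. With IAA few of these genes were called, since 1 of the 155 was called higher and 1 lower under S. pombe scaling and 4 higher under TMM, and the median was -0.26 (0.06 under TMM), against -0.26 and 0.07 over all genes.

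Of 4 alpha-specific genes, which MATa cells do not normally use, 2 were called higher than in WT in DMSO-treated RAP1-AID cells under both scalings, where 4.59% of all genes were. Here too a gene near 0 in WT could pass the filter on low counts through the RAP1-tagged groups where it is high. The share of all genes is therefore no baseline for these 4. SAG1, the alpha-agglutinin and the member with the most counts, had 1334 to 1882 normalised counts in WT and 2919, 2701 and 3239 in DMSO-treated RAP1-AID cells, a difference short of the fold threshold (0.89, edgeR adjusted p = 0.0276). STE3, the receptor for a-factor, had 1.53 to 13.9 normalised counts in WT and 144, 125 and 156 in RAP1-AID cells (4.31, edgeR adjusted p = 2.2e-17, and 3.73 under TMM). MF(ALPHA)1, an alpha-factor gene, had at most 1.39 in WT and between 12 and 16.9 in the 3 DMSO-treated RAP1-AID libraries, so the groups did not overlap. The rise over WT was not limited to alpha-specific genes. In the same contrast the 8 a-specific genes had a median of 1.18 (0.65 under TMM), where all genes had 0.52 (-0.01), and 1 was called higher. With IAA, STE3 had 246, 270.0 and 236 normalised counts (0.82, edgeR adjusted p = 0.307) and was not called, and the a-specific genes were not called in either direction with IAA (8 tested, median -0.22, or 0.11 under TMM).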

How the data were processed

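Per the labels, polyadenylated RNA of S. cerevisiae cells with added S. pombe cells was sequenced strand-specifically. The authors deposited raw counts of fragments per protein-coding gene for each species, without normalisation, and state cutadapt 1.9.1, BWA 0.5.9-r16 and featureCounts of Subread 1.5.1 on the R64 and ASM294v2 builds. Alignments were kept where the pair was proper and mapped to 1 place only, so near-identical copies are undercounted, and a fragment over overlapping genes on 1 strand counts for each. Of 6692 S. cerevisiae genes, 6254 passed filterByExpr of edgeR 4.0.16 (R 4.3.3), and symbols, introns and neighbours came from RefSeq (6008 identifiers matched). A coefficient per group was fitted by quasi-likelihood over all 21 libraries, with library sizes from S. pombe median-of-ratios factors, and the fit was repeated with TMM. P-values were adjusted by Benjamini-Hochberg over all tested genes, and an SE is the absolute log2 fold change over the square root of F. Scripts were tested on simulated data.

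Genes were named by a rule: among genes called under both scalings without overlap between groups, the 15 largest falls and 12 largest rises outside the RP genes, the 6 largest RP falls, RP genes not called, up to 4 called members per list, and genes of the labels or the study. Other names were chosen after their values were seen. The comparison and the lists were chosen with earlier results of these data known. Replicates are biological per the labels, and no 2 of a RAP1-AID group agreed within sampling noise. A count of 0 allows up to 3 counts, and intervals cover counting error only. Alternatives were TMM, DESeq2 1.42.0, no filter on low counts, the 6 RAP1-AID libraries alone, a replicate block, other motifs and windows, and each library left out in turn.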

Additional observations from a re-analysis of the deposited data

Results flagged for a closer look

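For the 33 genes named as largest falls or rises, the log2 fold change of IAA against DMSO was compared between RAP1-AID and STH1-AID cells by the interaction term of the edgeR fit, and the difference was called under both scalings for 24 of them, which is what marked them for a closer look. The 33 genes were ranked on the same RAP1-AID libraries that enter this difference, which favours a difference in the direction of their change, so the number that differed is a description (over all genes 6.27% were called lower and 32.3% higher under S. pombe scaling). Outside the RP genes all 15 falls differed. Under S. pombe scaling it (RAP1-AID minus STH1-AID) was -4.41 for ENO1, -4.23 for SCP1, -4.01 for YPL162C, -3.54 for QDR2, -3.02 for PHO84, -2.79 for MIN10, -2.77 for SFA1 and -2.75 for SST2. It was -2.65 for ADE17, -2.55 for PRO1, -2.49 for CMS1, -2.46 for YMR141C, -2.10 for YBR191W-A, -1.74 for HIS4 and -1.51 for YLL044W. Of the 12 rises, 3 differed, namely YLR184W at 5.24, YOR292C at 1.97 and RXT3 at 1.68. The 6 RP genes had differences of -2.49 for RPS25B, -2.19 for RPL29, -2.02 for RPS26B, -2.01 for RPL42A, -1.88 for RPL20A and -1.86 for RPL21B. No explanation was tested.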

How the results depend on the processing

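In the main comparison, IAA called 62 genes higher under TMM, 50 with DESeq2 and S. cerevisiae size factors, 64 with TMM on the 6 RAP1-AID libraries alone and 65 with a replicate block and TMM, against 25, and 81 rather than 128 genes outside the RP genes were called lower under TMM. Leaving out single libraries gave 17 to 22 genes higher, 204 to 255 lower and 88 to 128 lower outside the RP genes. Same-numbered DMSO and IAA libraries had correlations of their deviations from the group means of 0.22, 0.03 and 0.35 over 5655 genes, and other-numbered ones had -0.33 to 0.11. IAA replicates 1 and 3 correlated best with the DMSO library of their own number, and IAA replicate 2 with DMSO replicate 1 (0.11). Whether same-numbered libraries were prepared together is not given by the labels. The replicate block gave 37 higher and 272 lower under S. pombe scaling, as did the 6 libraries without it, and the mean of same-numbered differences left the log2 ratio of the species' counts at -0.48. The interaction had 1084 higher and 938 lower calls under TMM against 2022 and 392, with 1485 to 2257 and 271 to 596 when single libraries were left out, the last without replicate 3 of STH1-AID DMSO. For DMSO-treated RAP1-AID cells against WT, TMM gave 287 higher and 155 lower against 742 and 56, and leaving out single libraries gave 494 (without WT replicate 1) to 1169 (without WT replicate 2) higher and 51 to 65 lower. Genes near chromosome ends called higher, a count chosen after seeing the data, ranged from 84 to 106 when single libraries were left out, and the log2 ratio of the species' counts from -0.56 to -0.35. The share of windows with a match was 40.6%, 11.6% and 14.5% for lower genes outside the RP genes, 39.4%, 13.9% and 4.38% for RP genes and 5.48%, 0.914% and 0.966% for all genes with ACCCNNACA alone, with AC before it and with a window of 250 bases. The causes of these changes were not tested. Of 986 values for 71 named genes under the alternatives, 973 kept their direction and call, 11 lost it (YMR141C, YIL100C-A, NAT3 and MET17), 2 gained it (STE3) and none reversed. Of the 81 lower genes outside the RP genes 76 to 81 kept their call, of the 111 RP genes all, and of the 25 higher genes 17 to 25. With 3 libraries a group and a median SE of 0.31 under S. pombe scaling, changes near the threshold of 1 were resolved less well than under TMM.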
